A study of Homo sapiens with 9 samples.

Results

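The serine synthesis and one-carbon enzymes are a set of 10 genes, taken from the 62710 rows of the deposited table by their gene names, PHGDH, PSAT1, PSPH, SHMT1, SHMT2, MTHFD1, MTHFD2, MTHFD1L, ALDH1L2 and TYMS. Their mRNA was measured by poly(A) RNA-seq in A375R, a human melanoma line resistant to the BRAF inhibitor PLX4032 (a vemurafenib analog) and kept in that drug, so the resistant background is common to all libraries. The 9 libraries fall into 3 treatments of 3 libraries each. Cells received the vehicle DMSO (libraries that the labels call WT), 10 µM VHL-r, or 10 µM R4VPL3-1, and the compounds acted for 2 h. VHL-r is the moiety that binds the VHL ubiquitin ligase. R4VPL3-1 is a PROTAC-like molecule in which that moiety is joined by a linker to a binder of the ubiquitin ligase RNF4, so the compounds differ by the linker and the RNF4 binder. All libraries come from a single cell line, and the replicates are biological repeats of it according to the methods.

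Cells build serine from the glycolytic intermediate 3-phosphoglycerate. PHGDH oxidizes it, PSAT1 adds the amino group and PSPH removes the phosphate. SHMT1 in the cytosol and SHMT2 in mitochondria then split serine into glycine and a carbon unit carried by tetrahydrofolate. MTHFD1 in the cytosol and MTHFD2 in mitochondria pass that unit between its oxidation states. MTHFD1L then releases formate in mitochondria, and ALDH1L2 burns the mitochondrial formyl unit to carbon dioxide while making NADPH. TYMS spends a unit on thymidylate for DNA. In tumour cells the mitochondrial arm is often high, and ATF4, the transcription factor of the amino acid response, is known to drive PHGDH, PSAT1, SHMT2, MTHFD2 and ALDH1L2.

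MTHFD2 was the enzyme called higher with both compounds, by 19.5% with R4VPL3-1 and by 13.4% with VHL-r. ALDH1L2 was called higher by 18.2% with R4VPL3-1, a call that rested on single libraries. With VHL-r the ALDH1L2 difference was also 13.4%, but it was not called (adjusted p = 0.141 by limma). No other enzyme passed the test against DMSO, and none of the 10 passed it between R4VPL3-1 and VHL-r. The mRNA of the transcription factor MYC, which is known to activate several of these genes, fell in the same libraries, whereas that of ATF4 rose. Any link of either factor to the enzyme values was not tested.

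Libraries held between 26435568 and 32085626 reads on genes, with a median of 28165279, and between 560 and 10426 reads lay behind each value of a member. All 10 members passed the low-value filter, a mean of at least 10 normalized reads over the 9 libraries, as did 15230 genes in all. Values are read counts divided by a size factor per library, and differences are on the scale of log2(value + 1). The 6 tested melanocyte and melanoma markers were led by SOX10, with 17550 ± 482 in DMSO (SD, n = 3), while MLANA and MIA were listed at 0 in every library and TYR was near 0. Of the 10 markers in that list the summed value ran from 21210 to 23050 in DMSO, from 12370 to 15280 with VHL-r and from 10970 to 13190 with R4VPL3-1, SOX10 and MITF being called lower and PAX3 higher with both compounds. The 11 markers of keratinocytes, fibroblasts, immune and endothelial cells summed to between 1714 and 3421 in any library, led by COL1A1, and PTPRC, CD3E, CD68, PECAM1 and CDH5 reached at most 11.8 normalized reads. Exons of other genes on the same strand cover 81.6% of the CD68 exon bases and 68.45% of those of MIA, and the part that this plays in their low values was not tested. KRT14 was called lower with R4VPL3-1 and LUM with VHL-r. The part that these marker differences play in the results below was not tested. In bulk RNA a change in the mix of cells and a change of RNA per cell cannot be told apart.

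Divided by the length of the canonical transcript, the 10 mRNAs spanned a wide range. TYMS was the highest at 5158 normalized reads per kb over the 9 libraries, followed by SHMT2 at 3835, PSAT1 at 3164, PHGDH at 2802, MTHFD1 at 2346 and MTHFD2 at 2029 per kb. SHMT1 at 939.8 and MTHFD1L at 805.3 per kb came next, then PSPH at 474 and ALDH1L2 at 83.59 per kb. The median over tested genes was 170 per kb, so 9 of the 10 enzymes lay above it, and ALDH1L2 lay at the 37.7th percentile. The ranges of neighbours over the 9 libraries did not overlap except for PSAT1 (3049 to 3353 per kb) and PHGDH (2575 to 3059 per kb), and SHMT1 (892.4 to 979.2 per kb) and MTHFD1L (723.5 to 915.7 per kb).

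The genes lie apart in the genome (GRCh38), with SHMT2 (chr12:57229573-57234935, plus strand) and ALDH1L2 (chr12:105019784-105107643, minus strand) sharing a chromosome but not a neighbourhood. Their spans run from 5.4 kb for SHMT2 to 236.2 kb for MTHFD1L (chr6:150865679-151101887, plus strand). The other members are PHGDH (chr1:119648411-119744218, plus strand), PSAT1 (chr9:78297125-78330093, plus strand), PSPH (chr7:56011051-56051604, minus strand), SHMT1 (chr17:18327860-18363563, minus strand), MTHFD1 (chr14:64388031-64463457, plus strand), MTHFD2 (chr2:74186172-74217565, plus strand) and TYMS (chr18:657653-673578, plus strand). On the antisense side, exons of TYMSOS and ENOSF1 cover 47.91% of the TYMS exon bases on the opposite strand, which the strand-aware counting kept apart. Of all 100-base windows of MTHFD1, 1.47% also occur in its pseudogene MTHFD1P1, and the share was 0.0% for the other members.

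RefSeq promoters (GRCh38.p14, the 250 bases before a start site) were at hand for 7 members, among them MTHFD2 and also PSAT1, a classical ATF4 target that did not pass the test. These windows are shown, from chr2:74198365-74198614 and chr9:78296875-78297124, both on the plus strand and with the start site after the last base, because MTHFD2 was called with both compounds and PSAT1 with neither.

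MTHFD2: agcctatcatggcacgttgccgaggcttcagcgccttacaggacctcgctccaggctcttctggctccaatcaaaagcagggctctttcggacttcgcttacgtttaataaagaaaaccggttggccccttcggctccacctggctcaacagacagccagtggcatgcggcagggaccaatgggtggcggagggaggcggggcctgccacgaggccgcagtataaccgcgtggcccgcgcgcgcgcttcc

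PSAT1: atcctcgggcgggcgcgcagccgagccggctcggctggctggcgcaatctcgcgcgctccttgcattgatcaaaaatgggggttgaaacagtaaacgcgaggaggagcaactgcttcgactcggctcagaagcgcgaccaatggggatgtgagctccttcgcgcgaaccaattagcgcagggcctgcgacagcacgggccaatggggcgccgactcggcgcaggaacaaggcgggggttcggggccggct

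The windows were searched on both strands for the C/EBP-ATF element TGATGNAA, which ATF4 binds with C/EBP partners, the E-box CACGTG, which MYC binds, and the antioxidant response element TGACNNNGC of NRF2. The windows of MTHFD2 and PSAT1 hold no match, so nothing in them is in capitals. The search covered only these 250 bases and a fixed letter pattern for each factor. Sites elsewhere, and binding of the factors, were not tested. Among all 35116 promoter windows, 3.14% hold the C/EBP-ATF element, 6.34% the E-box and 10.9% the antioxidant response element. Of the 7 members, MTHFD1L holds the C/EBP-ATF element, MTHFD1 and MTHFD1L hold the E-box, and no member holds the antioxidant response element. These shares are per window, whereas members are counted per gene. MTHFD1L has 4 windows, of which 2 that overlap each other hold both matches. All 250 bases of the MTHFD1 window and 197 of the PHGDH window lie in annotated exons of the same gene. The share was 55 bases in each MTHFD1L window that holds matches. The matches lie at chr6:150866346-150866375, chr6:150866321-150866350 and chr14:64388323-64388352 on the plus strand, and are given as 30-base stretches with the motif in capitals, since they are the matches found in the set. The pair of MTHFD1L stretches overlaps at the ends, and MTHFD1L and MTHFD1 are genes that did not pass the test in any comparison.

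MTHFD1L C/EBP-ATF: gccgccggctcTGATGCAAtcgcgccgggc

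MTHFD1L E-box: acgcccggctcCACGTGcgcagccggccgc

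MTHFD1 E-box: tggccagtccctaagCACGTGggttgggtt

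**Figure D1:**
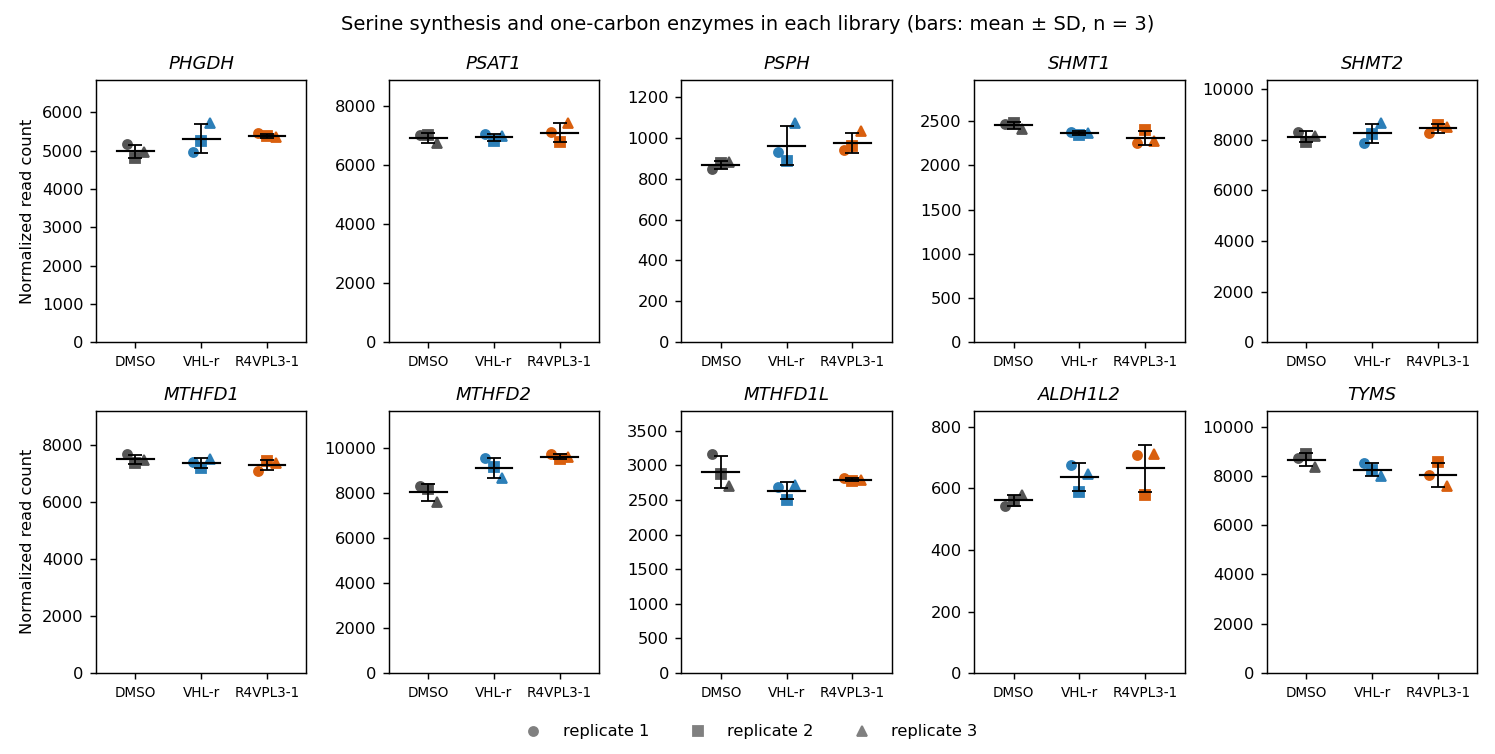
Normalized read count (vertical axis, from 0) of each of the 10 enzymes in every library, by treatment, with the mean and SD of the 3 libraries as bars. The MTHFD2 libraries of both compounds all lie above the DMSO libraries, from 8681 upward against at most 8346, while PSAT1, SHMT2, MTHFD1 and TYMS overlap between treatments.

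None of the serine synthesis enzymes passed the test, and PHGDH and PSPH had all R4VPL3-1 libraries above DMSO. Such separate groups, in either direction, were found for 38% of all tested genes. PHGDH, the entry enzyme, stood at 5162, 4804 and 4972 normalized reads in DMSO, at 4965, 5264 and 5709 with VHL-r, and at 5449, 5376 and 5351 with R4VPL3-1. The R4VPL3-1 libraries lay above all DMSO libraries, whereas VHL-r libraries overlapped both. The difference of R4VPL3-1 from DMSO was 0.12 on the log2 scale (95% interval 0.013 to 0.22), with an adjusted p of 0.0956 by limma. With upper quartile rescaling in place of the deposited size factors this p became 0.047. That was the 1 alternative fit of 20 in which the difference passed.

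PSAT1, the aminotransferase, measured 7011, 6995 and 6725 in DMSO, 7025, 6806 and 6980 with VHL-r, and 7107, 6763 and 7397 with R4VPL3-1. The 3 treatments overlap, and the difference of R4VPL3-1 from DMSO was 0.036 (-0.055 to 0.13) at adjusted p = 0.601. PSPH, the phosphatase and per kb the least abundant of these enzymes, measured 847, 878 and 880 in DMSO, 929, 888 and 1070 with VHL-r, and 938, 960 and 1031 with R4VPL3-1. Every library of either compound lay above every DMSO library. Groups were apart in either direction for 38% of all tested genes with R4VPL3-1 and 34.3% with VHL-r. The PSPH differences from DMSO were 0.17 (0.023 to 0.31) with R4VPL3-1, adjusted p = 0.0851, and 0.14 with VHL-r, adjusted p = 0.17. The R4VPL3-1 difference passed in 2 of the 20 alternatives. One left VHL-r replicate 3, the library at 1070, out of the shared fit (adjusted p = 0.0458 by limma). The other had the replicate number as a block (0.043). The ratio of PSAT1 to PHGDH reads, not corrected for length, was 1.35 to 1.46 in DMSO, 1.22 to 1.42 with VHL-r and 1.26 to 1.38 with R4VPL3-1.

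The serine hydroxymethyltransferases did not pass the test. Cytosolic SHMT1 measured 2469, 2474 and 2411 in DMSO, 2383, 2341 and 2364 with VHL-r, and 2255, 2401 and 2276 with R4VPL3-1. It was the only enzyme whose libraries lay below all DMSO libraries with both compounds, at log2 differences of -0.086 (R4VPL3-1, adjusted p = 0.196) and -0.053 (VHL-r, adjusted p = 0.491). Groups that do not overlap were found in either direction for 38% of all tested genes with R4VPL3-1 and 34.3% with VHL-r. Mitochondrial SHMT2 measured 8313, 7905 and 8143 in DMSO, 7875, 8240 and 8636 with VHL-r, and 8243, 8589 and 8501 with R4VPL3-1. Its treatments overlap, with a difference of 0.057 at adjusted p = 0.385 for R4VPL3-1 and 0.022 at adjusted p = 0.789 for VHL-r.

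MTHFD2, the mitochondrial dehydrogenase and cyclohydrolase, carried the clearest change of the set. Its libraries stood at 8346, 8183 and 7632 in DMSO, at 9553, 9156 and 8681 with VHL-r, and at 9735, 9512 and 9616 with R4VPL3-1. The DMSO libraries were the lowest 3 of the 9, and the lowest R4VPL3-1 library lay just under the highest VHL-r library. MTHFD2 rose by 0.26 (SE 0.045, 95% interval 0.16 to 0.35) with R4VPL3-1, adjusted p = 0.000201, which is 19.5% with an interval of 12.0% to 27.6%. With VHL-r it rose by 0.18 (SE 0.045, interval 0.086 to 0.28), adjusted p = 0.00642, which is 13.4% with an interval of 6.18% to 21.0%. Both calls held under all 20 alternatives, with adjusted p between 1.3e-06 and 0.00211 for R4VPL3-1 and between 0.00174 and 0.0457 for VHL-r. These comparisons share the DMSO libraries. Among all tested genes, 13.1% were called higher with R4VPL3-1 than with DMSO and 11.8% lower, against 2 and 0 of the 10 enzymes. With VHL-r, 10.3% were called higher and 9.51% lower, against 1 and 0 of the enzymes.

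MTHFD1L, which releases formate from mitochondria, measured 3160, 2870 and 2703 in DMSO, 2683, 2497 and 2723 with VHL-r, and 2815, 2774 and 2786 with R4VPL3-1. DMSO spread most, with a coefficient of variation of 7.94% against 0.764% with R4VPL3-1. Its difference with VHL-r was -0.14 (-0.26 to -0.028), adjusted p = 0.0759 by limma, and passed in 2 of the 20 alternatives. They were the fit without DMSO replicate 3, the lowest DMSO library (-0.19, adjusted p = 0.0223), and the replicate number as a block (0.0453). With R4VPL3-1 the difference was -0.058, adjusted p = 0.5. MTHFD1, the cytosolic counterpart, measured 7682, 7382 and 7470 in DMSO, 7398, 7207 and 7532 with VHL-r, and 7109, 7431 and 7384 with R4VPL3-1. Its treatments overlap, and neither difference from DMSO passed (-0.040 with R4VPL3-1, adjusted p = 0.533, and -0.026 with VHL-r, adjusted p = 0.735).

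ALDH1L2, the least abundant enzyme per kb, stood at 544, 560 and 578 in DMSO, at 675, 588 and 646 with VHL-r, and at 708, 578 and 711 with R4VPL3-1. R4VPL3-1 replicate 2 lay only just above the highest DMSO library, and the other R4VPL3-1 libraries lay well above it. ALDH1L2 rose by 0.24 (SE 0.083, interval 0.069 to 0.41) with R4VPL3-1, adjusted p = 0.037, which is 18.2% with an interval of 4.89% to 33.2%. The call was lost in 5 of the 20 alternatives. They were no low-value filter (adjusted p = 0.0518) and the fits without DMSO replicate 1 (0.108), DMSO replicate 2 (0.0892), R4VPL3-1 replicate 1 (0.16) or R4VPL3-1 replicate 3 (0.132). With VHL-r its difference was 0.18 (0.0092 to 0.35), adjusted p = 0.141.

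TYMS, the thymidylate enzyme, measured 8721, 8874 and 8370 in DMSO, 8536, 8226 and 8011 with VHL-r, and 8025, 8546 and 7572 with R4VPL3-1. The treatments overlap, with R4VPL3-1 replicate 3 the lowest library and DMSO replicate 2 the highest. The difference was -0.11 (-0.20 to -0.0086) with R4VPL3-1, adjusted p = 0.108, and -0.068 with VHL-r, adjusted p = 0.364. The R4VPL3-1 difference passed in 1 of the 20 alternatives (-0.15, adjusted p = 0.0359 by limma). That fit left out R4VPL3-1 replicate 2, the highest of its group.

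**Figure D2:**
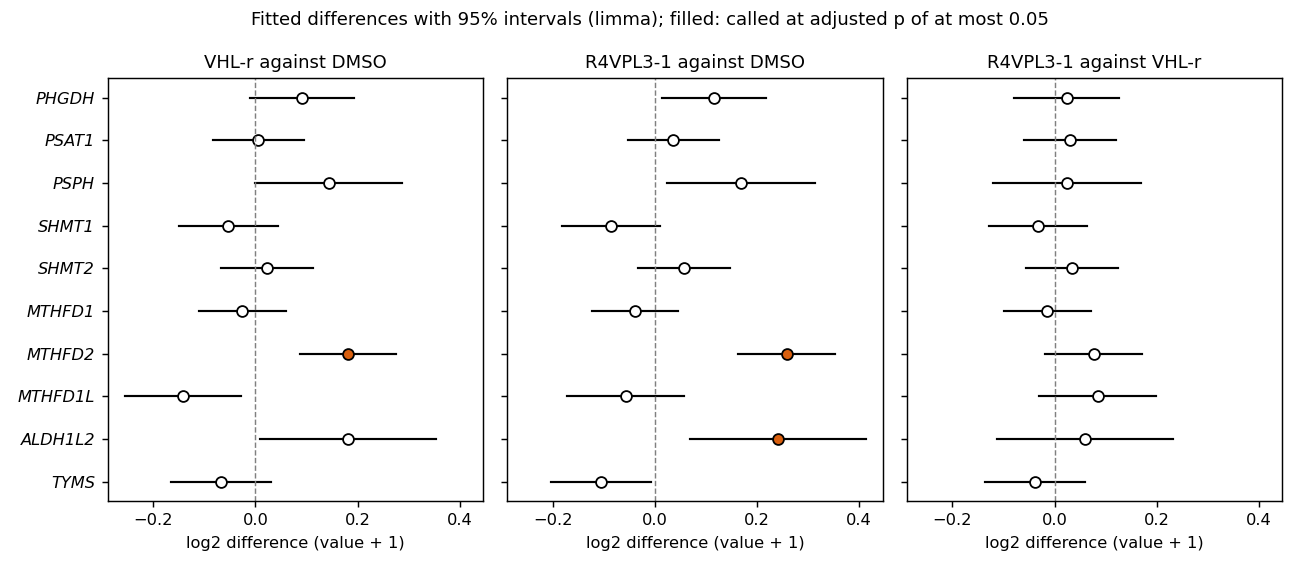
Fitted log2 differences of the 10 enzymes (points) with 95% intervals (lines) for VHL-r against DMSO, R4VPL3-1 against DMSO and R4VPL3-1 against VHL-r. Filled points passed the test, namely MTHFD2 in the comparisons with DMSO and ALDH1L2 with R4VPL3-1, and in the third panel no point is filled.

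Across the set, the differences had smaller medians in absolute size than those of all tested genes. The median absolute log2 difference of the enzymes was 0.096 for R4VPL3-1 against DMSO and 0.080 for VHL-r against DMSO, where the medians over all tested genes were 0.14 and 0.12. The genes compared were not matched for level. Standard errors were wider for genes with few reads, at 0.41 for FTCD (described below) against at most 0.083 for the enzymes. The signed medians were 0.046 and 0.014 for the enzymes, and -0.0063 and -0.0045 for all genes. Groups of libraries were apart for 5 of the enzymes with R4VPL3-1 against DMSO, higher for MTHFD2, ALDH1L2, PHGDH and PSPH and lower for SHMT1, where 38% of all tested genes had groups that do not overlap. With VHL-r they were apart for MTHFD2, ALDH1L2, PSPH and SHMT1, against 34.3% of all genes.

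The full molecule was also compared with its VHL-binding moiety at the matched dose and time, and no enzyme passed the test. Between R4VPL3-1 and VHL-r, limma called 0 of the 10 enzymes, 0 had an unadjusted p under 0.05, and edgeR and DESeq2 on the recovered reads also called 0. Across all tested genes 1.14% were called higher with R4VPL3-1 and 0.729% lower. The groups were apart for MTHFD1L alone, lower with VHL-r, against 14.1% of all genes. The largest differences were 0.085 for MTHFD1L (-0.030 to 0.20), 0.077 for MTHFD2 (-0.018 to 0.17) and 0.060 for ALDH1L2 (-0.11 to 0.23). Over the 10 enzymes the interval bounds ran from -0.14 to 0.23, or from -9.0% to 17.4%, and differences of that size between the compounds lie within these intervals. The median absolute difference was 0.034 for the enzymes and 0.071 for all genes, again without matching for level.

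Ratios of normalized reads within a library, not corrected for length, do not depend on how libraries are scaled to each other. The ratio of MTHFD2 to its cytosolic counterpart MTHFD1 was 1.09, 1.11 and 1.02 in DMSO, 1.29, 1.27 and 1.15 with VHL-r, and 1.37, 1.28 and 1.30 with R4VPL3-1. Both compounds lay above DMSO in every library, and the compounds overlapped each other. The SHMT2 to SHMT1 ratio was 3.37, 3.19 and 3.38 in DMSO, 3.30, 3.52 and 3.65 with VHL-r, and 3.66, 3.58 and 3.74 with R4VPL3-1. Here R4VPL3-1 lay above DMSO in every library, while VHL-r overlapped both. MTHFD1L to MTHFD1 went from 0.362 to 0.411 in DMSO, 0.346 to 0.363 with VHL-r and 0.373 to 0.396 with R4VPL3-1, and so overlapped DMSO with either compound. Within mitochondria the ratio of MTHFD2 to MTHFD1L was 2.64 to 2.85 in DMSO, 3.19 to 3.67 with VHL-r and 3.43 to 3.46 with R4VPL3-1. With 3 libraries against 3, the smallest two-sided p that an exact permutation test can give is 0.1, so these ratios are given as values. How often the ratios of other gene pairs lie apart was not computed. Single genes had groups apart from DMSO for 38% of all tested genes with R4VPL3-1 and 34.3% with VHL-r.

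**Figure D3:**
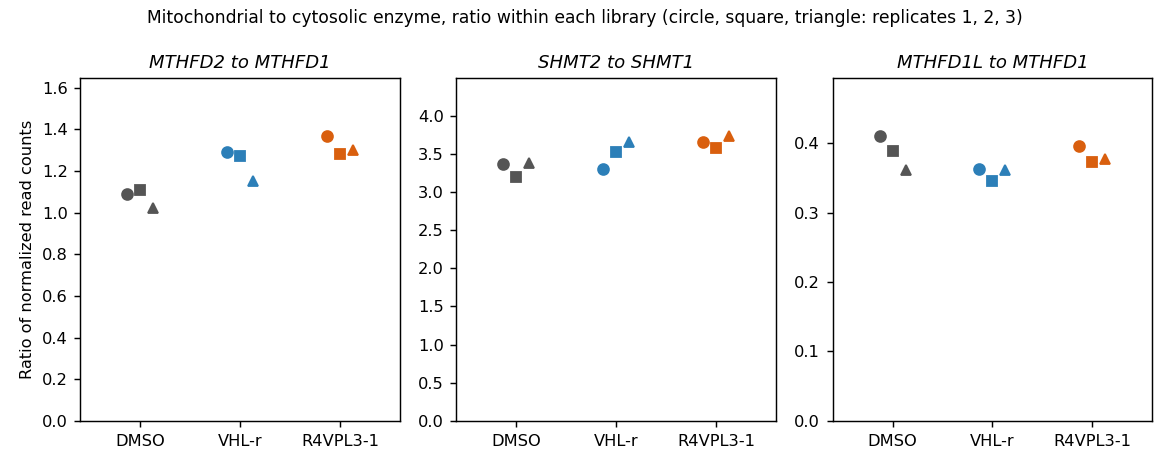
Ratio of a mitochondrial enzyme to its cytosolic counterpart in each library (vertical axes from 0), with circles, squares and triangles for replicates 1, 2 and 3. MTHFD2 to MTHFD1 is at most 1.11 in DMSO and at least 1.15 with either compound. SHMT2 to SHMT1 is above DMSO in all R4VPL3-1 libraries, and MTHFD1L to MTHFD1 overlaps between R4VPL3-1 and DMSO. How often the ratios of other gene pairs lie apart was not computed.

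Over the 9 libraries, the tested genes whose log2 values were most like MTHFD2 were NUP58 (Pearson r 0.988), NGLY1 (0.988), NEMP1 (0.986), ABHD3 (0.983) and CNOT1 (0.982). For PSAT1 they were ERO1A (0.965), CACNA2D1 (0.931), GDPD4 (0.908), IARS1 (0.904) and SRP54 (0.896). These are the highest of 15230 genes over only 9 points that share their treatments, and they are given as a description.

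Other genes of folate metabolism and transport were followed alongside. Of 21 other folate genes 16 were tested. For this and the lists below, the share of all tested genes called in either direction was 24.9% with R4VPL3-1 against DMSO. It was 19.8% with VHL-r against DMSO and 1.87% between the compounds. With R4VPL3-1 against DMSO, FTCD was called higher and DLD and GLDC lower, and with VHL-r FTCD was called higher and SLC19A1 lower. FTCD, of histidine breakdown, stood at only 4.06 to 11.8 normalized reads in DMSO and 11.3 to 25.0 with VHL-r. GLDC, the decarboxylase of the glycine cleavage system, fell by 0.47 (adjusted p = 0.0175) with R4VPL3-1. All of these calls were lost in 3 to 8 of the alternatives, mostly when 1 library was left out. SLC25A32, the mitochondrial folate carrier, and GCSH were at most 1.07 normalized reads in any library, and AMT was listed at 0. Exons of other genes on the same strand cover 69.7%, 12.14% and 62.64% of their exon bases, and the part that this plays in these values was not tested.

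Among 13 tested genes of serine and glycine transport and use, SLC38A2, a carrier of small neutral amino acids, distinguished the compounds. It measured 7691, 7951 and 8031 in DMSO, 8354, 7936 and 8139 with VHL-r, and 10280, 9369 and 9684 with R4VPL3-1. It was higher with R4VPL3-1 by 0.31 against DMSO (adjusted p = 1.56e-05) and by 0.26 against VHL-r (adjusted p = 0.000872). SLC1A5, the glutamine carrier that also takes serine, was called higher with both compounds against DMSO, by 0.16 and 0.17, calls lost without single libraries. SLC1A4, a serine and alanine carrier, fell by 0.20 with R4VPL3-1 (adjusted p = 0.0047), as did the mitochondrial serine carrier SFXN3 by 0.20 (adjusted p = 0.00698), which was not called without DMSO replicate 3 (0.054). SPTLC2, a subunit of serine palmitoyltransferase, was also called higher with VHL-r.

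Of 7 tested genes of the methionine cycle and transsulfuration, 2 were called, and both rose. Against DMSO, 24.9% of all tested genes were called with R4VPL3-1 and 19.8% with VHL-r. CTH, the transsulfuration enzyme that releases cysteine from cystathionine, stood at 159, 126 and 169 in DMSO, 253, 243 and 267 with VHL-r, and 457, 395 and 366 with R4VPL3-1. The 3 treatments did not overlap. CTH rose by 1.42 (SE 0.12) with R4VPL3-1 and by 0.76 with VHL-r against DMSO (adjusted p = 8.64e-09 and 6.48e-05), and was higher by 0.67 with R4VPL3-1 than with VHL-r (adjusted p = 0.00159), all kept under the 20 alternatives. MAT2A of the methionine cycle, which makes S-adenosylmethionine, went from 13430 ± 212 in DMSO to 16490 ± 215 with VHL-r and 17350 ± 462 with R4VPL3-1 (SD, n = 3), a rise of 0.30 and 0.37. The other 5 tested genes of this list, the transsulfuration enzyme CBS among them, were not called in any comparison.

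Folate carbon units also feed into purines and thymidylate. Of 15 tested genes of purine and thymidine nucleotide synthesis, 2 were called, with each compound against DMSO and not between the compounds. The share over all tested genes was 24.9% with R4VPL3-1 and 19.8% with VHL-r. PPAT, the first enzyme of purine synthesis, rose by 0.24 with either compound (adjusted p = 0.000855 with R4VPL3-1 and 0.00093 with VHL-r), and RRM2B, a ribonucleotide reductase subunit induced by p53, by 0.22 and 0.20, the VHL-r call being lost without single libraries. ADSL and IMPDH2 of this list and ASNS, a well-known ATF4 target, were listed at 0 in every library and so were not tested. Cells commonly use these genes, and a listed 0 is not read here as absence of the mRNA. Exons of other genes on the same strand cover 11.1%, 32.79% and 49.33% of their exon bases, and the part that this plays was not tested. Of 16 genes of G1/S and S phase, a set in which TYMS usually moves, 2 were called with R4VPL3-1 and 1 with VHL-r. The shares over all tested genes were again 24.9% and 19.8%. CCNE1 (0.27, adjusted p = 0.00709 by limma) and SLBP (0.18, adjusted p = 0.0068, lost without DMSO replicate 3) rose with R4VPL3-1. PCNA (0.12, adjusted p = 0.0388, lost in 7 alternatives) rose with VHL-r.

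ATF4 and its other known targets had larger list medians than the enzymes. Of 16 tested, limma called 10 higher and 2 lower with R4VPL3-1 against DMSO, 5 higher and 2 lower with VHL-r, and 7 higher and 0 lower between R4VPL3-1 and VHL-r. In these comparisons 24.9%, 19.8% and 1.87% of all tested genes were called in either direction. The list medians were 0.37, 0.099 and 0.29. ATF4 itself stood at 6425, 6186 and 6386 in DMSO, 7375, 7428 and 7756 with VHL-r, and 10210, 10080 and 9552 with R4VPL3-1, with no overlap between the treatments. CHAC1, which breaks down glutathione, rose by 2.61 with R4VPL3-1, DDIT3, the stress factor CHOP, by 2.15, and SESN2, a leucine sensor that restrains mTORC1, by 1.91. With VHL-r the rises were 0.94, 0.48 and 1.39. DDIT4, another mTORC1 inhibitor, rose by 2.14 with R4VPL3-1 and fell by 0.53 with VHL-r, the latter call being lost with the robust option of limma (adjusted p = 0.158). Differences between R4VPL3-1 and VHL-r were 2.67 for DDIT4, 1.68 for CHAC1, 1.67 for DDIT3 and 0.52 for SESN2.

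Of 9 tested regulators of the serine and folate genes, 1 was called higher and 4 lower with R4VPL3-1, and 1 and 3 with VHL-r. Over all tested genes 13.1% were called higher and 11.8% lower with R4VPL3-1, and 10.3% and 9.51% with VHL-r. MYC stood at 1253, 1254 and 1049 in DMSO, 379, 430 and 408 with VHL-r, and 320, 401 and 321 with R4VPL3-1, every treated library lying far below DMSO. It fell by 1.77 and 1.54 (adjusted p = 9.8e-12 and 1.86e-10), with no call between the compounds. The mRNA of NFE2L2, the antioxidant factor NRF2, fell by 0.26 with R4VPL3-1 (adjusted p = 0.000365). With VHL-r the NFE2L2 difference was -0.14 and was not called (adjusted p = 0.0534 by limma). All VHL-r libraries lay below all DMSO libraries, and groups were apart in either direction for 34.3% of all tested genes. The VHL-r difference was called in 5 of the 20 alternatives. NFE2L2 was not called between the compounds (-0.12, adjusted p = 0.326). The paper reports a higher level of the encoded protein after the full molecule, and protein was not measured here. EIF2AK3, the stress kinase PERK, rose by 0.52 and 0.43, and MDM2, the p53 ligase, fell by 0.21 and 0.22. At 2 h MYC and ATF4 mRNA had changed in opposite directions, and a link of either to the enzyme values was not tested. Of the 10 enzymes 2 were called with R4VPL3-1 and 1 with VHL-r, against 24.9% and 19.8% of all tested genes in either direction.

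**Figure D4:**
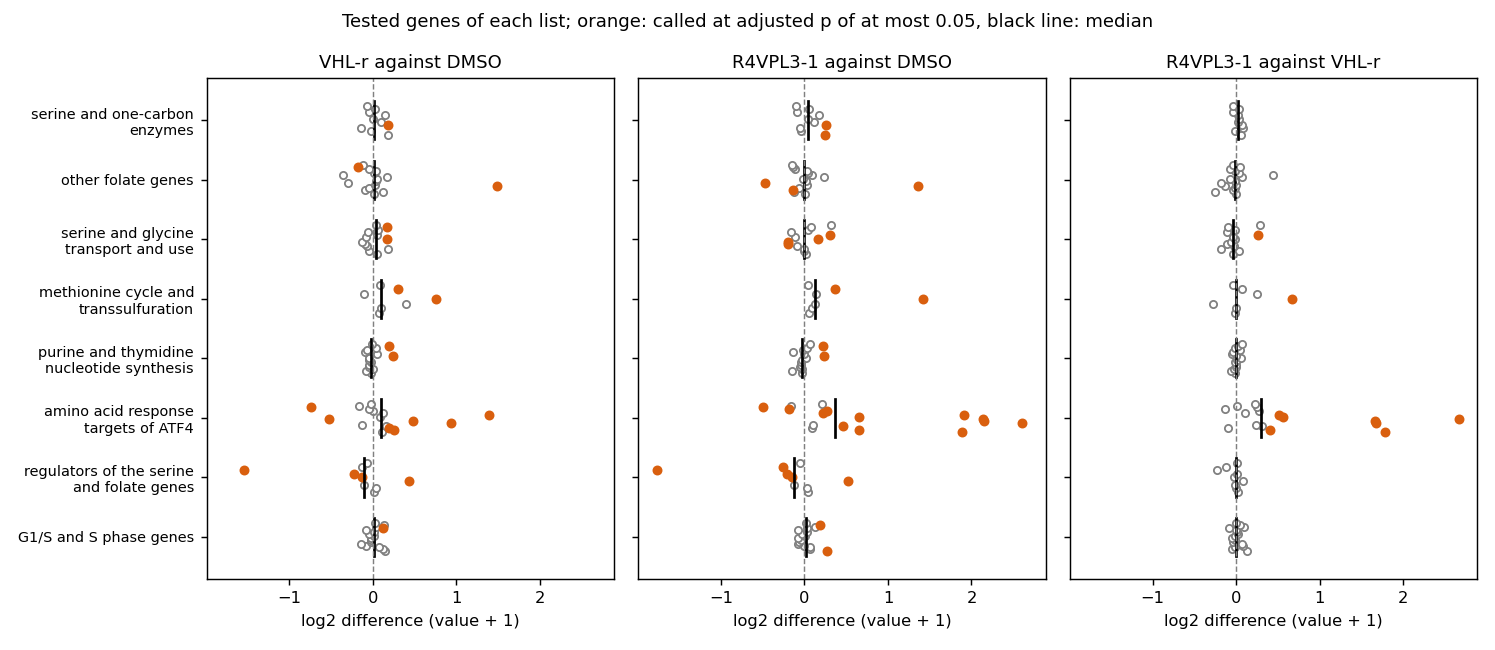
Log2 differences of the tested genes of each list (points) in the 3 comparisons, with called genes in orange and the list median as a black line. The enzymes stay within 0.26 of 0, whereas ATF4 targets reach 2.67 and MYC, the leftmost point, reaches -1.77.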

How the data were processed

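RNA was poly(A)-selected, made into strand-specific libraries and sequenced as single reads of 100 bases. According to the methods the authors aligned reads to GRCh38 with STAR, counted them per gene (Ensembl 109) with htseq-count in its reversed strand mode, and normalized them with DESeq2 (1.36.0 in the submitters' processing notes). The deposited signal values are these counts divided by a size factor per library. Whole reads were recovered from the steps of the values, at 26435568 to 32085626 reads per library. Of the values above 0, 100.0% lay within 0.006 normalized reads of a whole multiple of the step fitted to their library. Recovered reads served for edgeR and DESeq2 only.

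The 15230 genes whose mean reached 10 were fitted with limma 3.58.1 (R 4.3.3, trend) on log2(value + 1), with treatment as the only factor and all libraries in the fit. Calls required p of at most 0.05 after Benjamini-Hochberg adjustment across these genes. The scripts were tested on simulated data. The 20 alternatives were pseudocounts of 0.1 and 5, no filter, a mean of at least 50, TMM and upper quartile rescaling, the robust option, the replicate number as a block, edgeR 4.0.16, DESeq2 1.42.0, only the 6 libraries compared, and each library left out. Levels per kb used the canonical transcript of GENCODE 44, which also gave the exon overlaps.

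All enzymes are named. From each other list the 4 called genes with the largest absolute difference are named, together with ATF4, SPTLC2, CBS and genes at or near 0, which were chosen after their values were seen. The members and lists were chosen with earlier results of these data known.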

Additional observations from a re-analysis of the deposited data

How the results depend on the processing

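Over the 20 alternatives, 578 of 600 values of the enzymes kept their direction and their side of the threshold. With no low-value filter 1 enzyme was called for R4VPL3-1 against DMSO, in place of 2, and leaving out a library gave 1 to 3. For VHL-r against DMSO the count was 1, and leaving out a library gave 1 to 2. Values that changed sign were all near 0 and did so when a library was left out. Between R4VPL3-1 and VHL-r their ranges were -0.024 to 0.077 for PHGDH, -0.00072 to 0.064 for PSAT1, -0.031 to 0.10 for PSPH (-0.015 without R4VPL3-1 replicate 3), -0.031 to 0.0057 for MTHFD1 and -0.083 to 0.0047 for TYMS. Against DMSO they were -0.11 to 0.0031 for MTHFD1L with R4VPL3-1, and -0.014 to 0.019 for PSAT1 and -0.011 to 0.055 for SHMT2 with VHL-r. Genes called between R4VPL3-1 and VHL-r numbered 285, and 182 to 358 with a library left out, the lowest without R4VPL3-1 replicate 1. The cause was not tested.

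The labels give same-numbered libraries no shared source, although the sample numbers in them run through the 3 treatments of each replicate in turn. Correlations of the deviations of same-numbered libraries ran from -0.0056 to 0.12 over 9 pairs, not all above 0.1. The numbers were therefore not taken as pairs. As a hint from the data that some libraries may be paired, 6 of 9 correlated best with their own number. With the replicate number as a block, 4241, 3451 and 389 genes were called (R4VPL3-1 and VHL-r against DMSO, and R4VPL3-1 against VHL-r), in place of 3792, 3016 and 285, and 3, 2 and 0 enzymes. Rescaling moved the median of all genes to at most 0.011. The lowest read count behind a member value was 560, and ALDH1L2 had the widest standard error (0.083). FTCD was not tested with a minimum mean of 50.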

Other observations

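The spread between libraries differed among the enzymes. The coefficient of variation ran from 0.764% (MTHFD1L) to 11.4% (ALDH1L2) over the R4VPL3-1 libraries. PHGDH varied by 0.948% over those libraries and by 7.05% with VHL-r, where replicate 3 was highest, as it also was for PSPH (9.96% with VHL-r) and SHMT2 (4.62%). MTHFD1 stayed between 2.06% and 2.38% in every treatment.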
